A study of Mus musculus with 2 samples.

Results

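Crosslinked anti-Rbfox1 reads in Gpm6a were described on the plus strand of chromosome 8 between 56035000 and 56148000 (mm9, as all positions here). Reads lying wholly inside this window of 113001 nt were taken as reads of the gene. They numbered 765 of the 64820 deposited reads of the anti-Rbfox1 library and 2 of the 569 deposited reads of the anti-Flag control. The gene was chosen because a stretch of 997 nt near the downstream end of the window was among the deepest of the anti-Rbfox1 library, so its depth is a description and was not tested.

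Both libraries came from a cytoplasmic fraction of cultured mouse neurons of the forebrain at 14 days in vitro, irradiated on ice with ultraviolet light of 254 nm at 500 mJ/cm2 and partly lysed for 1 min with 0.1% Triton X-100. RNA joined to protein was precipitated with antibodies against Rbfox1 or, as the control, against the Flag epitope, with 1 library for each. The labels give no Flag-tagged protein, genotype or strain, and they do not say which isoforms of Rbfox1 the antibodies bind. Markers of neurons and of other cells of such cultures were not analysed here, because the genes could not be placed on the mm9 build. In iCLIP, copying of the RNA often halts where protein was attached, and the base just upstream of a read is taken as its crosslink position.

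Gpm6a codes for the neuronal membrane glycoprotein M6a, a membrane-spanning protein that lies on the surface of neurons and is known for its part in the outgrowth of neurites and filopodia. The protein Rbfox1 binds RNA and recognises the letters GCATG, often with a T in front (U in the RNA). Its nuclear forms are known for regulating splicing, and its cytoplasmic forms for binding the 3′ untranslated regions (UTRs) of mRNAs.

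To show where these letters occur in the gene, the Gpm6a mRNA was taken from GENCODE release M21 (ENSMUSG00000031517.8, transcript ENSMUST00000033915.8). This annotation is of the GRCm38 build, whose positions were not set against those of the reads. In it the transcript has 7 exons and a spliced length of 3215 nt, made up of a 5′ UTR of 436 nt, a coding region of 837 nt with its stop codon (278 codons without it) and a 3′ UTR of 1942 nt. GCATG occurred at 4 places of the mRNA, of which 1 lay in the coding region and 3 in the 3′ UTR. The search covered the mRNA strand. The sites are shown with the bases around them and GCATG in capitals, since GCATG is the element that the precipitated protein is known to recognise.
Coding region, mRNA position 1176: aagatgcctgccGCATGcagaagtacgaa
3′ UTR, mRNA position 1961: tttatgttgtgaGCATGtagaaacagtaa
3′ UTR, mRNA position 1985: agtaatgctaatGCATGgccagttgcctt
3′ UTR, mRNA position 2816: agcgtttctgtgGCATGattatgcattct
Positions count from 1 at the 5′ end of the mRNA and give the G of GCATG. The sites at 1961 and 1985 lay 24 nt apart, and the next followed 831 nt downstream, 400 nt from the 3′ end of the mRNA counted from its G. Of the 3 sites in the 3′ UTR, only that at 1985 had the longer form TGCATG. Such counts are common. Of 5537 mouse 3′ UTRs at least as long as that of Gpm6a and cut to its length, 83.3% held GCATG at least once, 30.1% held it at least 3 times and 48.8% held TGCATG. Whether the crosslinked stretch falls in the 3′ UTR, and how far its crosslinks lie from these sites, was not analysed here.

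The anti-Rbfox1 reads of Gpm6a lay almost entirely in 1 place. The stretch from 56144906 to 56145902 held 755 of the 765 reads, which is 98.7% (exact Clopper-Pearson 95% interval 97.6 to 99.4). By distinct crosslink positions it held 321 of 330, or 97.3%. The remaining 10 reads were spread over 4 shallow clusters upstream. On the minus strand of the window, 0 reads were found in either library. The gene took 1.18% of the anti-Rbfox1 reads (1.10 to 1.27) and 0.689% of the distinct crosslink positions (0.617 to 0.767). The intervals here take in counting error alone, as PCR-amplified reads do not stand for separate molecules.

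Same-strand crosslink positions no more than 20 nt apart formed a cluster, and clusters no more than 1000 nt apart formed a stretch. This gave 11 anti-Rbfox1 clusters in Gpm6a among 10134 in the library, 7 of them in the deep stretch. Of the 11 clusters, 7 held at least 10 reads, against 12.3% of all anti-Rbfox1 clusters. At least 50 reads were held by 6 of the 11, against 1.75% of all, and at least 100 reads by 2, against 0.464% of all. The gene was selected on this depth, so these counts describe the selection.

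**Figure D1:**
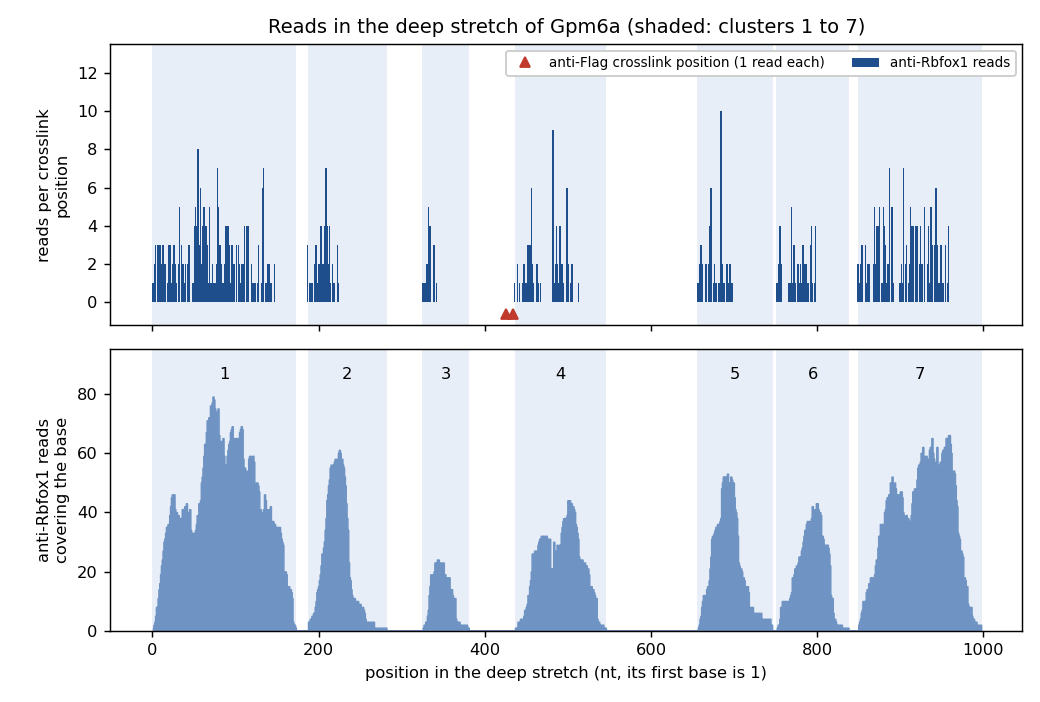
Reads of the deep stretch by position in nt, with the first base of the stretch at 1. The upper panel gives anti-Rbfox1 reads per crosslink position and, as triangles, the 2 anti-Flag crosslink positions. The lower panel gives the number of anti-Rbfox1 reads covering each base, and the shaded areas are the 7 clusters. The cover reaches 79 reads in cluster 1, falls to 0 between clusters, and the triangles sit just upstream of cluster 4.

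The 7 clusters of the deep stretch, numbered from its upstream end, differed widely in depth. Cluster 1, from 56144906 to 56145077, was the highest, with 269 reads at 113 crosslink positions. Cluster 7, from 56145755 to 56145902 at the other end, followed with 187 reads at 69 positions. Together these outer clusters held 60.4% of the reads of the stretch (56.8 to 63.9), and cluster 1 alone held 35.6% (32.2 to 39.2). The 5 clusters between them held 299 reads.

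Cluster 4, from 56145342 to 56145450, held 83 reads at 39 positions, the most among the inner clusters. Cluster 2, from 56145093 to 56145186, held 68 reads, and cluster 5, from 56145562 to 56145650, held 65. Cluster 6, from 56145657 to 56145742, held 59. These 4 clusters had similar depth, between 59 and 83 reads. Cluster 3, from 56145231 to 56145285, was the shallowest and the narrowest, with 24 reads at 11 positions over 55 nt.

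**Figure D2:**
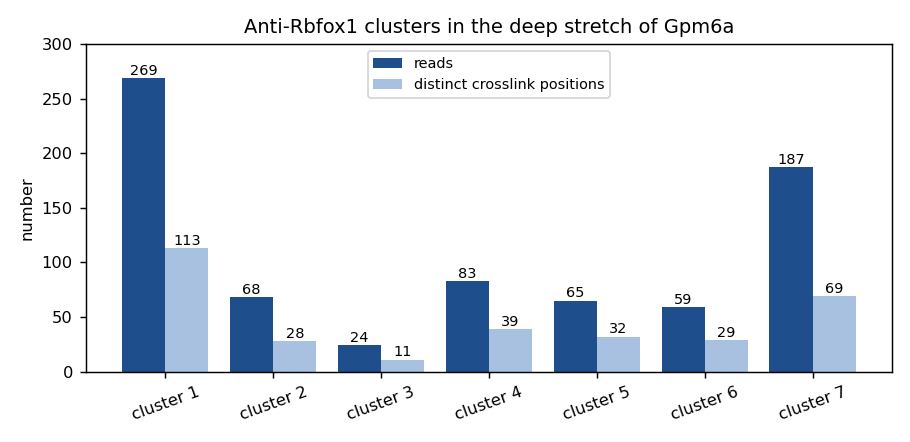
Number of anti-Rbfox1 reads (dark bars) and of distinct crosslink positions (light bars) in each of the 7 clusters of the deep stretch, numbered from its upstream end. The clusters at both ends, with 269 and 187 reads, stand above the 5 inner clusters, which hold 24 to 83.

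Reads covered 753 of the 997 bases, or 75.5%, and left 244 bases bare between clusters. The widest bare gap was 111 nt, between clusters 4 and 5, and the narrowest was 6 nt, between clusters 5 and 6. Where gaps under 20 nt were bridged, the stretch fell into 4 covered runs. The upstream run of clusters 1 and 2 spanned 281 nt and held 337 reads, and the downstream run of clusters 5 to 7 spanned 341 nt and held 311 reads. These runs held 44.6% and 41.2% of the reads. Clusters 3 and 4 stood alone between them, behind bare gaps of 44 and 56 nt.

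The deepest base of the stretch was 56144978 in cluster 1, which 79 reads covered. In cluster 7 the cover reached 66 reads and in cluster 2 it reached 61. Cluster 2 thus came close in cover to cluster 7, and less close to cluster 1, although it held far fewer reads than either. The crosslinks of cluster 2 fell within 38 nt, against 148 nt in cluster 1 and 110 nt in cluster 7. The crosslinks of cluster 3 fell within 18 nt and those of cluster 5 within 43 nt. In 4 of the 7 clusters the deepest base, or 1 of the deepest where 2 were tied, came right after the last crosslink position.

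Crosslinks were spread over many positions. The position with most reads was 56145589 in cluster 5, with 10 reads or 1.32% of the stretch. It was followed by 56145387 in cluster 4 with 9 reads and by 56144960 in cluster 1 with 8. Positions with at least 5 reads numbered 29 and together held 173 reads, or 22.9%. Of these 29 positions, 10 lay in cluster 1. More of them lay in cluster 7, although it had 69 crosslink positions against 113 in cluster 1. At the other extreme 126 of the 321 positions (39.3%) had 1 read.

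Within a cluster the highest position took between 2.97% of the reads, in cluster 1, and 20.8%, in cluster 3, where it was 56145237 with 5 reads. Crosslinked bases often lay side by side. Of 320 steps between neighbouring crosslink positions, 222 (69.4%) were of 1 nt. Between 50% and 76.4% of the bases from the first to the last crosslink of a cluster held a crosslink, the lowest share in cluster 4 and the highest in cluster 1.

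The downstream ends of the reads were about as spread as the crosslinks. The 755 reads ended at 292 distinct bases, which is 2.59 reads per end, against 2.35 reads per crosslink position. The commonest end, 56144984 in cluster 1, was shared by 14 reads. Reads per crosslink position varied little between the clusters, from 2.03 to 2.71, with cluster 7 the highest. No pair of reads in the stretch shared both ends. A read count here is therefore a count of different pairs of ends and is limited by the removal of copies before deposit. It need not be a count of separate molecules.

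The reads of the stretch were somewhat short. Their median length was 26 nt with an interquartile range of 22 to 33 nt, against 28 nt and 23 to 35 nt in the whole anti-Rbfox1 library. The cluster medians ran from 25 to 28 nt, so in 0 of the 7 clusters did the median exceed that of the library. Reads under 20 nt made up 11.0% of the stretch (8.85 to 13.4) and 9.86% of the library (9.63 to 10.1), and these intervals overlap. Read length was not used in choosing the gene, but reads of 1 library are not replicates and the difference was not tested.

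**Figure D3:**
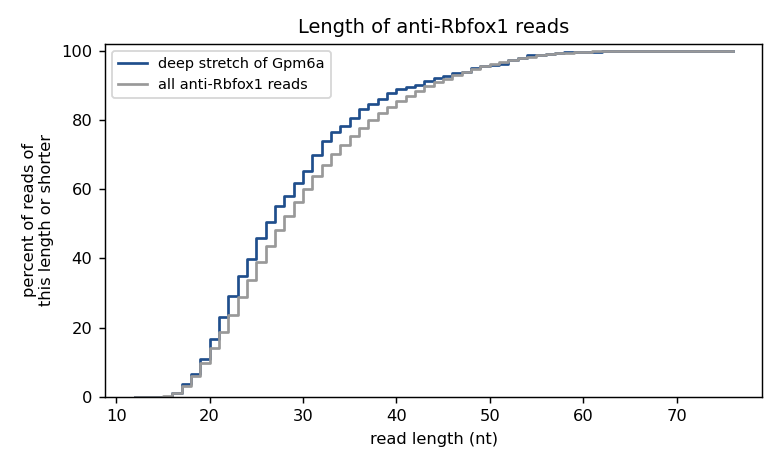
Percent of reads at or below each read length in nt, for the deep stretch of Gpm6a (dark line) and all anti-Rbfox1 reads (grey line). The dark line runs above the grey one over most lengths, with medians of 26 and 28 nt.

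The 4 clusters upstream of the deep stretch held 2 to 4 reads each. The nearest, from 56135495 to 56135536, ended 9369 nt before the stretch and held 4 reads at 3 crosslink positions. A cluster of 2 reads from 56096257 to 56096284 lay 48621 nt upstream. A pair of clusters with 2 reads each, from 56069616 to 56069660 and from 56069684 to 56069732, lay about 75 kb upstream and 23 nt apart. The lines of the anti-Rbfox1 file fall into blocks, in each of which the chromosomes run through in order, and the upstream clusters stood in other blocks than the deep stretch. In the block of the 3 farther clusters no plus-strand reads shared a leftmost base, so a position there held at most 1 read.

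The window edges did not divide any group of reads. The first reads inside lay 34.6 kb from the upstream edge, and the last ended 2098 nt before the downstream edge. Outside the window the nearest anti-Rbfox1 reads of the plus strand were a cluster of 3 reads 7397 kb upstream and one of 2 reads 5245 kb downstream. The GENCODE transcript spans 106029 nt, close to the length of the window, and RefSeq's model of the gene in GRCm38 spans 281445 nt. A longer model would therefore reach past the window, and it would add no anti-Rbfox1 read within that distance on the plus strand.

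The control asked how much of this signal appeared with an unrelated antibody. It held 2 reads in Gpm6a, which is 0.351% of the control library (0.0426 to 1.26). At the anti-Rbfox1 share of reads, 6.72 control reads would have fallen in the gene. By distinct crosslink positions the gap was smaller, with 2 control positions where the anti-Rbfox1 share would give 3.62. As plain counts the anti-Rbfox1 library had 382.5 times as many reads in Gpm6a and 113.9 times as many in all. By positions these ratios were 165 and 91.2. With 2 control reads the interval of the ratio by reads in Gpm6a is wide, 105.5 to 3164. It takes in the ratio of 113.9 for all reads. The gene was chosen for its anti-Rbfox1 depth, so these values describe the choice and the libraries were not compared by a test.

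Both control reads lay in the deep stretch. They ran from 56145331 to 56145353 and from 56145340 to 56145357, with crosslink positions at 56145330 and 56145339. This put them at the upstream edge of cluster 4, where they overlapped 7 and 12 anti-Rbfox1 reads. Neither crosslink position was shared with an anti-Rbfox1 read, and the nearest anti-Rbfox1 crosslinks lay 11 and 2 nt away. Clusters 1 and 7, the deepest, had 0 control reads. By a limit of 3 counts, this allows a share of up to 0.527% of the deposited control reads. Cluster 1 held 269 and cluster 7 held 187 of the 64820 anti-Rbfox1 reads, and each of these shares is below that limit. The 0 control reads therefore do not set either cluster apart from the control. No anti-Rbfox1 cluster held fewer than 2 reads. If single reads were left out before deposit in the control too, the limit does not extend to all sequenced reads.

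The 2 control reads formed 1 of 233 control clusters, 171 of which also held 2 reads. Cluster 4 was the only 1 of the 11 Gpm6a clusters that overlapped control reads. In the library, 0.572% of the clusters did so, and among the 1248 clusters of at least 10 reads 2.56% did. With 1 of 7 such clusters in Gpm6a, the numbers are too small for a comparison.

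The deep stretch was then set beside the other stretches of the anti-Rbfox1 library. It stood in place 3 of 7297 by reads and in place 1 by distinct crosslink positions. The stretches next above it were on the plus strand of chromosome 2 (136607185 to 136608146) with 837 reads at 304 positions and on the minus strand of chromosome 5 (136384278 to 136385081) with 791 reads at 305 positions. Next below were the minus strand of chromosome 7 (17500731 to 17502506) with 729 reads at 278 positions and the plus strand of chromosome 11 (17099829 to 17100377) with 524 reads at 220 positions. Gpm6a thus had more crosslink positions and fewer reads than the stretches above it.

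**Figure D4:**
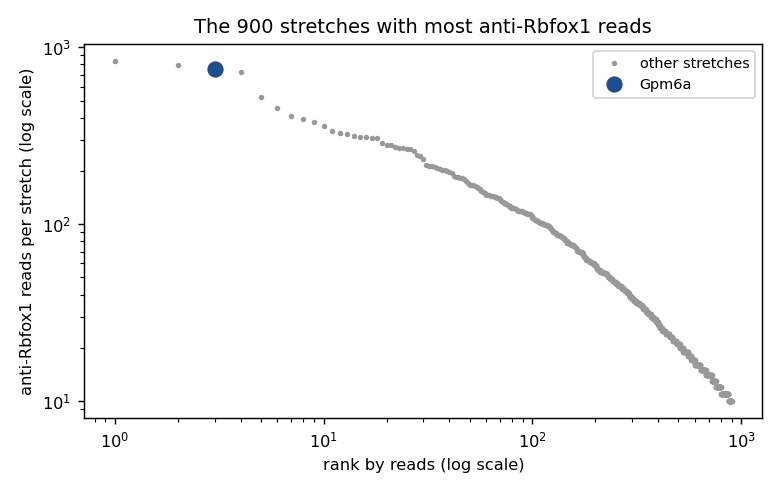
Anti-Rbfox1 reads per stretch against the rank of the stretch, both on log scales, for the 900 stretches with most reads. Gpm6a, the large dark point, stands in place 3 with 755 reads. The stretch in place 5 holds 524.

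Of these 5 stretches Gpm6a had the fewest reads per position and the smallest share of reads at its highest position. It had 2.35 reads per position, chromosome 11 had 2.38, and the other 3 had 2.59 to 2.75. The highest position took 1.32% of the reads in Gpm6a and 1.72% to 3.43% in the other 4. The highest cluster took 35.6% of the reads in Gpm6a, 33.1% on chromosome 5 and 40.1% to 51.1% in the other 3. All 5 stood in the same block of file lines.

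Against the 114 stretches of at least 100 reads, Gpm6a was of ordinary length, with 997 nt beside a median of 1012.5 nt. It had 7 clusters beside a median of 5, and 30 stretches had more. Reads covered 75.5% of its bases beside a median of 44.9%, and 19 stretches were covered more fully. Among the 5 deepest this was not unusual. The values were 71.9% on chromosome 2, 76.4% on chromosome 5, 77.8% on chromosome 11 and 38.5% on chromosome 7. Whether the covered share goes with depth was not tested. The 2.35 reads per position of Gpm6a lay above the median of 1.62, and 13 stretches had more. The low value among the 5 deepest was thus high in this wider set, which mixes blocks of file lines. Its highest position took a smaller share of the reads (1.32%) than in 110 of the other 113 stretches, and the median over the 114 was 3.86%. That share is not independent of depth. The median read length of 26 nt was exceeded in 85 of the 114 stretches and undercut in 7. Of the 114 stretches, 79 stood in the same block of file lines as Gpm6a. In the first block no plus-strand reads share a leftmost base, so a plus-strand position there holds at most 1 read. How far such differences between blocks shift the reads per position of this set was not tested.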

How the data were processed

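Each deposited file lists aligned reads of 1 library, with start, end, strand and, in the sixth column, another genome position. Per the submitters' processing notes, the authors used Bowtie and the mm9 build. How copies were removed, which filters were used and the versions were not given in the sources used here. The sixth column was 1 base upstream of the read in 64820 of 64820 anti-Rbfox1 and 569 of 569 anti-Flag reads and served as the crosslink position. Reads sharing both ends and strand numbered 0, so copies had been removed before deposit. Where the alphabetical chromosome order falls back, a new block of file lines was taken to begin (11 and 7 blocks). What blocks stand for is not given. The deep stretch lay in the fourth block, with 74.1% of the anti-Rbfox1 reads. Of the upstream clusters, 3 lay in the first block, where no plus-strand reads share a leftmost base, and 1 in the ninth.

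Clusters joined crosslink positions within 20 nt, stretches joined clusters within 1000 nt, and reads overlapped if they had 1 base or more in common on 1 strand. The intervals shown for shares and for the ratio by reads are exact 95% intervals. Ratios by positions and some shares were given none. There is 1 library per antibody, so no p-value was computed. The joining recovered 500 of 500 planted clusters in simulated data. No planted gap was near the joining limits, so this checks the code and not the choice of limits. All 7 clusters of the deep stretch, all clusters of at least 10 reads, every control read and the 2 stretches next above and below by reads were to be named. The gene and these rules were chosen with earlier results of these data known. The annotation at hand was of GRCm38, so crosslinks were not set against exons or motifs, and the related gene Gpm6b was not analysed here. Python 3.11.15, numpy 2.4.6, pandas 2.3.3, scipy 1.17.1 and matplotlib 3.10.9 were used.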

Additional observations from a re-analysis of the deposited data

How the results depend on the processing

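Of 20 alternative settings, 12 left a value within its interval, or a count or rank within 1.5 times, and 8 moved it. The share of anti-Rbfox1 reads in Gpm6a, 1.18%, was 0.689% by distinct crosslink positions, 1.05% with reads that share a 3′ end and have crosslinks 1 nt apart counted as 1 read, and 1.57% within the block of the deep stretch alone, which has fewer reads in all. The share of Gpm6a reads in the deep stretch, 98.7%, was 97.3% by positions and 100% in clusters of at least 5 reads, of which the gene had 7 in place of 11. The highest cluster took 44.6% of the stretch in place of 35.6% when positions within 50 nt were joined, which unites clusters 1 and 2. The ratio of anti-Rbfox1 to control reads in Gpm6a, 382.5, was 165 by positions. That value is still inside the wide interval of the ratio by reads (105.5 to 3164). The stretch moved from place 3 to place 1 by positions. The cause of the shifts by positions was not tested. The 2 settings for the GCATG motif were not run, since they need a genome of the mm9 build. No paired analysis was possible because there is 1 library for each antibody. The 569 control reads limit the comparison: 0 reads there still allow 0.527% of the deposited control reads.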

Other observations

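The deep stretch held read pairs that differ by 1 base at the crosslink and share the downstream end. Counted as 1 read, they reduced its 755 reads to 598, a loss of 20.8%. The same counting lowered the share of Gpm6a in the library from 1.18% to 1.05%, so the library as a whole lost a smaller part. Whether the difference goes with the depth of the stretch was not tested.

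The read names carry the tile of the flow cell, of which there were 96. The first 16 tiles held 83.7% of the reads of the deep stretch (95% interval 80.9 to 86.3) and 81.3% of all anti-Rbfox1 reads (81.0 to 81.6). In the 7 clusters this share ran from 76.9% in cluster 5 to 87.5% in cluster 3. The reads of the stretch came from 63 tiles. The 2 control reads of Gpm6a came from different tiles.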
